A study of Mus musculus with 9 samples.

Results

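The genes described here encode Sonic hedgehog and the proteins that release, bind and receive it: the ligand gene Shh, the release genes Disp1 and Scube2, the receptor gene Ptch1, the binding protein gene Hhip, the signal transducer gene Smo, and the co-receptor genes Cdon, Boc and Gas1. They were chosen by symbol, and all 9 were found among the 38197 gene symbols of the deposited tables. The cells came from 1 mouse embryonic stem cell line, E14.1, of strain 129 and wild-type genotype, differentiated in monolayer. By the labels every culture received retinoic acid (RA) and SAG, an agonist of Smo, from 0 to 3 days in differentiation conditions (DDC), whereas the methods of the study place the change to medium without supplements somewhat later, and no group without these agents was compared. Cells carrying prominin-1, found on the surface of neural progenitors, were then sorted with magnetic beads at 4.5DDC, 5.5DDC or 6.5DDC, and polyadenylated RNA was sequenced from 3 libraries at each time point. A second field of the labels rounds these times down to 4, 5 and 6 days, and the times with decimals are used here.

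The 9 libraries differed in depth. Total counts at 4.5DDC were 17820600, 11244489 and 14390493 in replicates 1, 2 and 3. The 5.5DDC libraries held 25506192, 11573528 and 11066572 counts, and those of 6.5DDC held 12851795, 16479971 and 15913820. The labels do not say whether the replicates were separate cultures, so p-values measure only the spread between these samples, which may be technical. Replicate 1 stood apart at each time point. Across the tested genes, which are not independent replicates, the deviations of a replicate 1 library from its time point's mean were positively correlated with those of replicate 1 at the other time points (r = 0.743, 0.454 and 0.383) and negatively with those of replicates 2 and 3 (r from -0.653 to -0.123). The deviations at a time point sum to 0, so a library that stands apart makes the others deviate the opposite way. Results that rest on replicate 1 are therefore also given without it.

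Shh protein is carried out of the producing cell by Disp1 together with the secreted protein Scube2. On the receiving cell it binds Ptch1, which otherwise holds Smo inactive, and the released Smo acts through the Gli transcription factors. Ptch1 and Hhip are themselves transcribed in response to the signal and limit it, and in the ventral midline of the hindbrain and spinal cord the floor plate is a lasting source of Shh.

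The sorted cells carried neural progenitor transcripts throughout. Sox2, a transcription factor of neural progenitors, lay between 78.2 and 96.0 FPKM (fragments scaled to transcript length and to the mapped total) in the 9 libraries. Prom1, which encodes the protein used for sorting, was at 89.3, 62.8 and 85.2 FPKM at 4.5DDC, 107, 99.9 and 104 at 5.5DDC and 207, 187 and 154 at 6.5DDC. It rose from 4.5DDC to 6.5DDC by 1.19 ± 0.18 (log2 fold change ± SE, edgeR adjusted p = 0.00363). Of 8 neural progenitor markers listed and tested, Prom1 among them, it was the only one that edgeR called higher, and 2 (Sox3, Nkx6-1) were called lower. Of all genes tested 9.21% were called higher and 9.53% lower. Hes5 had a log2 fold change of -2.10 ± 0.66 and narrowly did not pass (edgeR adjusted p = 0.0522). DESeq2 called 4 of the 8 and limma voom 2, against 24.9% and 17.7% of all genes. Nes, the most abundant on average, was not called and lay between 138 and 172 FPKM. The summed level of the 8 was 391, 410 and 396 FPKM at 4.5DDC, 403, 421 and 438 at 5.5DDC and 487, 495 and 440 at 6.5DDC. This sum includes Prom1, with means of 79.1 FPKM at 4.5DDC, 104 at 5.5DDC and 183 at 6.5DDC. The call of Sox3 was lost without 4.5DDC replicate 2, 6.5DDC replicate 1 or 6.5DDC replicate 2 (highest adjusted p = 0.125), and with limma in place of edgeR. Nkx6-1 lost its call without 4.5DDC replicate 2 or 6.5DDC replicate 2 (highest adjusted p = 0.0833). Pluripotent cell markers were near 0, with a summed level of at most 2.25 FPKM over 5 genes, led by Dppa5a, and 0 of the 5 passed the filter on low counts. Pou5f1 reached at most 0.606 FPKM.

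The 9 genes spanned a wide range of levels. Averaged over the 9 libraries, Shh stood at 219 FPKM, above 97.6% of the 14742 genes that passed the filter on low counts and were tested. Smo followed with 43.2 FPKM and Ptch1 with 39.4 FPKM. Cdon had 16.9 FPKM, Disp1 8.02, Hhip 5.05, Boc 2.95 and Gas1 2.06, and Scube2 lay lowest at 0.286 FPKM, above 2.78% of tested genes. Shh ranked highest and Scube2 lowest of the 9 in every library. Smo and Ptch1 always came next after Shh and Cdon after them, and Ptch1 exceeded Smo in 4.5DDC replicates 2 and 3 only. In the order of these means, the ranges of neighbours over the 9 libraries overlapped for every pair except Shh with Smo and Gas1 with Scube2.

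**Figure D1:**
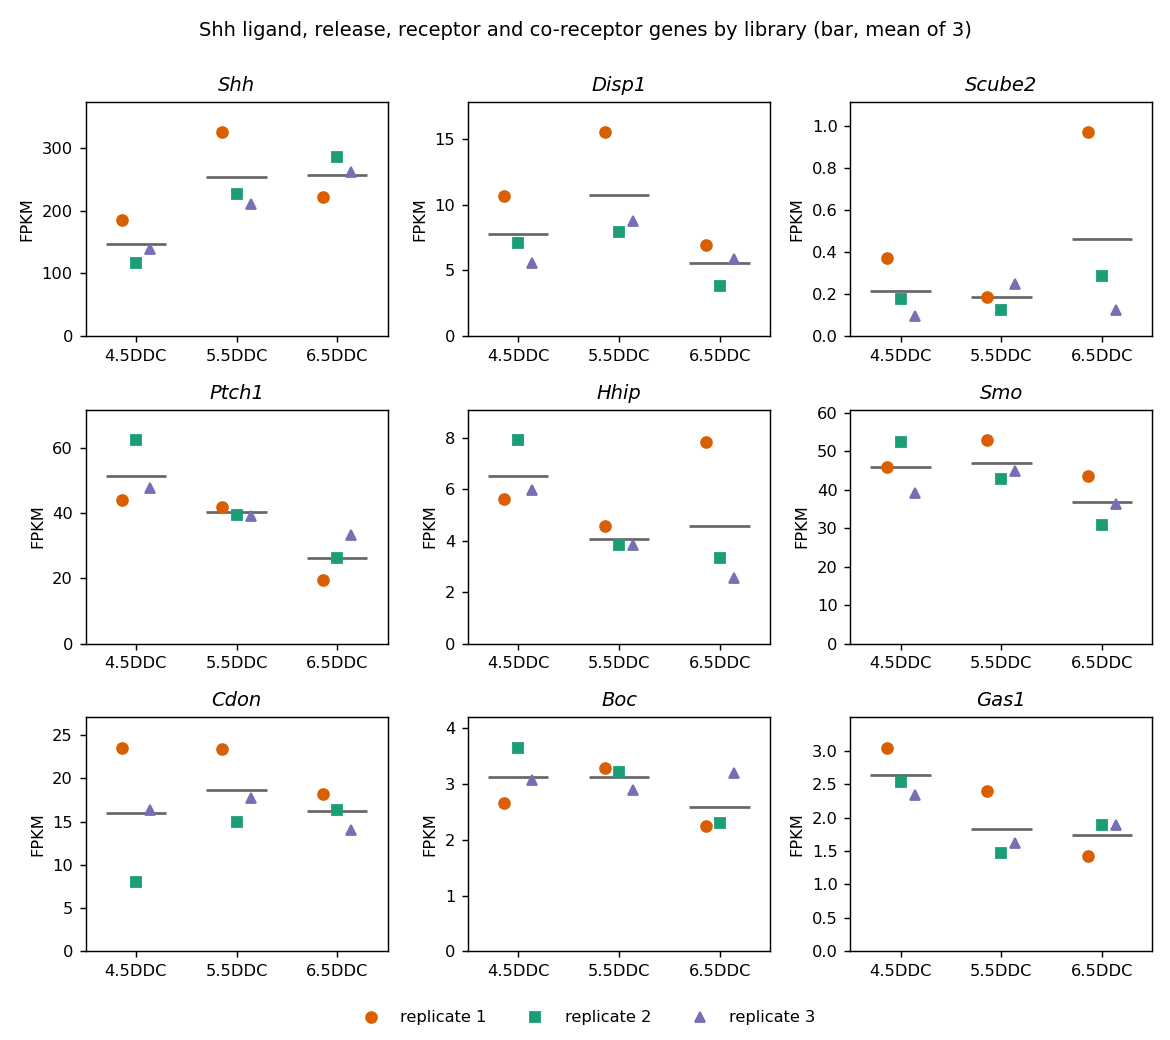
Level in FPKM of each of the 9 genes in its own panel at the 3 time points, with 1 symbol per library by replicate number and a bar at the mean of 3. Shh at 5.5DDC and 6.5DDC lies above all 3 libraries of 4.5DDC, and Ptch1 at 6.5DDC lies below all libraries of both earlier time points.

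Each pair of time points was compared to ask which of the 9 genes differed between younger and older progenitors, with edgeR's quasi-likelihood test and Benjamini-Hochberg adjustment over the 14742 genes. All 9 passed the filter. From 4.5DDC to 6.5DDC, 2 of the 9 passed an adjusted p of 0.05: Shh rose and Ptch1 fell. Over all genes tested the share was 18.7%, with 9.21% higher and 9.53% lower, so a count of 2 was near the background. Without adjustment 3 of the 9 were under 0.05 in that comparison, the third being Gas1, against 35.4% of all genes. The median log2 fold change of the 9 was -0.38, with 3 higher and 6 lower, against 0.0040 over all genes tested.

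In the intervals of 1 day edgeR made no call among the 9. From 4.5DDC to 5.5DDC edgeR called 0 of the 9, against 0.0746% of all genes, and 2 (Shh, Gas1) had an unadjusted p under 0.05, against 15.4% of all genes. DESeq2 called 1, Shh, in that interval, against 3.36% of all genes by DESeq2, and limma called 0. For the later interval and for both days together the DESeq2 share was 4.49% and 24.9%. Between 5.5DDC and 6.5DDC the count was again 0 by edgeR, DESeq2 and limma, against 0.224% of all genes by edgeR, and Disp1, Ptch1 and Smo had an unadjusted p under 0.05, against 18.5% of all genes. The test of any difference among the 3 time points called 1 gene, Ptch1, against 9.63% of all genes tested, and the unadjusted p was under 0.05 for 2, against 28.8%. Treating the replicate number as a block raised this count to 3, with Shh (adjusted p = 0.044) and Disp1 (adjusted p = 0.0288) added, against 14.8% of all genes in the blocked fit. Whether the later interval differed from the earlier one was tested within the same fit, and 0 of the 9 passed in edgeR and in limma, against 0.0% of all genes in edgeR, where 1 (Disp1) had an unadjusted p under 0.05, against 4.76%.

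**Figure D2:**
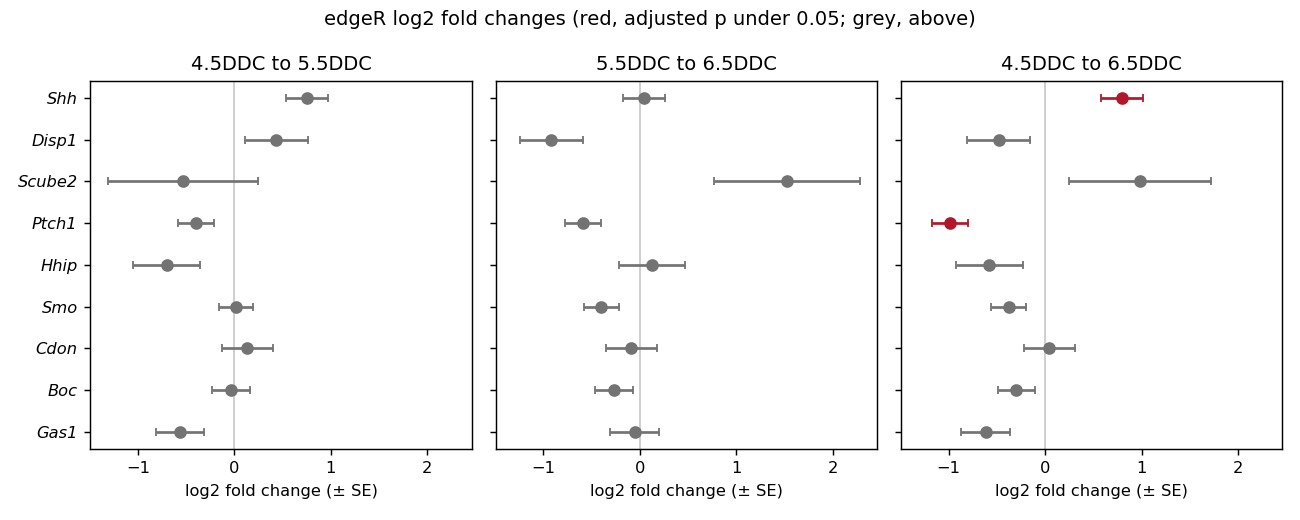
Log2 fold change of each of the 9 genes in the 3 pairs of time points, 1 panel per pair, with the SE of the edgeR fit to 9 libraries as error bars and red for an adjusted p under 0.05. Only Shh, above 0, and Ptch1, below 0, are red, both in the panel of 4.5DDC to 6.5DDC.

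Shh, which encodes the ligand, was at 185, 117 and 138 FPKM in the replicates of 4.5DDC, with a mean of 147 ± 34.8 (SD, n = 3). At 5.5DDC it was at 325, 226 and 212 FPKM (254 ± 61.9), and at 6.5DDC at 222, 286 and 263 FPKM (257 ± 32.4). All 6 later libraries lay above the 3 of 4.5DDC, while 5.5DDC and 6.5DDC overlapped. The rise from 4.5DDC to 6.5DDC was 0.79 ± 0.22 on the log2 scale, or 1.73-fold (edgeR adjusted p = 0.0321), and Shh was higher in 3 of 3 replicate numbers, by 0.32, 1.33 and 0.79 log2 CPM, that is, counts relative to each library's total after TMM scaling. That call was lost without 4.5DDC replicate 2 (adjusted p = 0.113), 4.5DDC replicate 3 (0.0769), 6.5DDC replicate 2 (0.114) or 6.5DDC replicate 3 (0.0599). With replicates 2 and 3 alone it was 1.05 (adjusted p = 0.00366). The first interval gave 0.75 ± 0.22 without passing the adjusted test (edgeR adjusted p = 0.189, unadjusted 0.00611), whereas DESeq2 gave an adjusted p of 0.0475, the lowest of a range up to 0.464 over the alternatives. For the later interval the value was 0.04 ± 0.21 (edgeR adjusted p = 0.931). The difference between the intervals, -0.71 ± 0.37, did not pass either (edgeR adjusted p = 0.76).

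In GRCm38 the Shh gene occupies chr5:28456815-28467256, minus strand. Of its 2847 exon bases, 807 overlap exons of genes annotated on the other strand, 9530036O11Rik and Gm26894. Of the 9 genes, 3 have such an overlap, the others being Hhip (175 of 9076 exon bases, with Gm27820) and Gas1 (589 of 2961 exon bases, with Gm48488). The sources used here do not say whether the counting used strand. Whether reads over these overlaps were given to these 3 genes, given to their partners or left out is therefore not known. The overlapping genes themselves were not analysed here. The other ligand genes of the family were scarcely detected: Ihh reached at most 0.159 FPKM and Dhh at most 0.0438 FPKM, and neither passed the filter.

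Some of the floor plate markers rose as well. Of 8 analysed, 7 were tested and 4 rose from 4.5DDC to 6.5DDC (Ferd3l, Spon1, Ntn1, Sulf1), against 9.21% of all genes higher, and all 7 had a log2 fold change above 0. From 4.5DDC to 5.5DDC edgeR called 0 of the 7, limma voom 0 and DESeq2 3, and 4 had p under 0.05 before adjustment, against 15.4% of all genes. Their summed level, made up mostly of Ntn1, Sulf1, Spon1 and Slit1, was 1421, 852 and 820.0 FPKM at 4.5DDC, 2545, 1593 and 1654 at 5.5DDC and 2141, 1666 and 1939 at 6.5DDC. In this sum, as for Shh, all 6 later libraries exceeded the 3 of 4.5DDC. Among single markers this held for Ferd3l, Spon1 and Ntn1, and not for Foxa2, Sulf1, Corin, Slit1 or Lmx1a. The calls of Ferd3l and Spon1 held in all 9 fits that left out 1 library. That of Ntn1 held only without 4.5DDC replicate 1 or 5.5DDC replicate 1, and that of Sulf1 in addition without 6.5DDC replicate 3 (highest adjusted p = 0.108 and 0.111). Ntn1 was also not called with only the 6 libraries compared. Foxa2, a transcription factor of the floor plate that is also made in endoderm, was not called, at 85.6, 62.2 and 46.5 FPKM at 4.5DDC, 100.005, 72.9 and 67.5 at 5.5DDC and 64.1, 77.4 and 81.2 at 6.5DDC. Slit1, not called by edgeR, was at 340, 240 and 161 FPKM at 4.5DDC, 642, 369 and 380 at 5.5DDC and 225, 176 and 337 at 6.5DDC, so its 5.5DDC libraries lay above all others. Lmx1a reached at most 0.252 FPKM. Ntn1, Sulf1 and Slit1 of this list are also made by other neural progenitors. In these bulk samples more or fewer cells of a type and more or less RNA per cell cannot be told apart, and the part of these markers in the result for Shh was not tested.

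Neuron markers were present in the sorted cells, and their sum was lowest in replicate 1. Of 8 listed, 7 were analysed, and from 4.5DDC to 6.5DDC 2 rose (Gata3, Fev) and 1 fell (Isl1) by edgeR, against 9.21% of all genes higher and 9.53% lower. Their summed level, led by Stmn2, was 120, 271 and 206 FPKM at 4.5DDC, 90.9, 310 and 322 at 5.5DDC and 172, 390 and 421 at 6.5DDC. Single markers departed from this at 6.5DDC, where Isl1 was lowest in replicate 3 (3.53 FPKM against 4.68 in replicate 1) and Fev in replicate 2 (1.27 against 1.29). Leaving out 1 library never ended the calls of Fev and Isl1, and that of Gata3 was lost without 4.5DDC replicate 3 or 6.5DDC replicate 2 (highest adjusted p = 0.0608). Shh at 4.5DDC and 5.5DDC was highest in replicate 1, and at 6.5DDC it was lowest there. The part of neurons in any result for the 9 genes was not tested.

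Disp1, which encodes the transporter that releases lipid-modified Shh, was at 10.7, 7.10 and 5.58 FPKM at 4.5DDC (7.79 ± 2.63), 15.5, 7.93 and 8.75 at 5.5DDC (10.7 ± 4.18) and 6.92, 3.79 and 5.89 at 6.5DDC (5.53 ± 1.59). Every 5.5DDC library exceeded every 6.5DDC library, and those of 4.5DDC overlapped both. From 5.5DDC to 6.5DDC the log2 fold change was -0.91 ± 0.33 (edgeR adjusted p = 0.206), lower in 3 of 3 replicate numbers, and from 4.5DDC to 6.5DDC it was -0.48 ± 0.33 (adjusted p = 0.318). Leaving out 1 library gave values from -1.14, without 6.5DDC replicate 1, to -0.54, without 5.5DDC replicate 1, for the later interval, and from -0.71, without 6.5DDC replicate 1, to -0.20, without 4.5DDC replicate 1, over both days, and none passed. Its difference between the intervals, -1.35 ± 0.55, had an adjusted p of 0.76 in edgeR. Counted over the 9 genes, the FPKM of 5.5DDC and 6.5DDC did not overlap for 2, Disp1 and Ptch1, both lower, against 24.0% of all genes tested. For 4.5DDC and 5.5DDC the number was 3 (Shh higher, Ptch1 and Hhip lower) against 23.8%, and for 4.5DDC and 6.5DDC it was 3 (Shh higher, Ptch1 and Gas1 lower) against 34.5%, all near the background.

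Disp2, a relative of Disp1, had 2.79, 3.18 and 2.14 FPKM at 4.5DDC, 5.81, 6.36 and 7.13 at 5.5DDC and 7.30, 9.09 and 12.2 at 6.5DDC. Between 4.5DDC and 6.5DDC it rose by 1.81 ± 0.20 on the log2 scale (edgeR adjusted p = 0.00125), with no overlap between any of the time points. The level of Disp1 relative to Disp2, in FPKM, was 3.84, 2.23 and 2.61 at 4.5DDC, 2.68, 1.25 and 1.23 at 5.5DDC and 0.949, 0.418 and 0.484 at 6.5DDC. Disp1 was thus the more abundant of the pair in all 6 earlier libraries and the less abundant in all 3 of 6.5DDC. This ratio was formed after the values were seen and was not tested.

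Scube2, which encodes a secreted partner of Disp1 in ligand release, was close to the limit of detection. It was at 0.368, 0.177 and 0.0966 FPKM at 4.5DDC, from 26, 7 and 6 counts, and at 0.186, 0.122 and 0.247 FPKM at 5.5DDC, from 21, 5 and 5 counts. At 6.5DDC it was at 0.967, 0.286 and 0.125 FPKM, from 44, 19 and 7 counts. The highest value, that of 6.5DDC replicate 1, stood above all others, and the time points overlapped. Its log2 fold change between 4.5DDC and 6.5DDC, 0.99 ± 0.74, did not pass (edgeR adjusted p = 0.365), and without 6.5DDC replicate 1 it was -0.11. Its relatives were more abundant. Scube1 had 26.4, 22.2 and 11.6 FPKM at 4.5DDC, 30.1, 15.7 and 16.1 at 5.5DDC and 9.93, 5.40 and 8.83 at 6.5DDC, and between 4.5DDC and 6.5DDC it fell by 1.09 ± 0.30 in log2 units (edgeR adjusted p = 0.0345). Its call was lost without 4.5DDC replicate 1, 4.5DDC replicate 2, 6.5DDC replicate 2 or 6.5DDC replicate 3 (highest adjusted p = 0.123), and with limma on log2(FPKM + 1). Scube3, not called, lay between 10.5 and 28.4 FPKM.

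**Figure D3:**
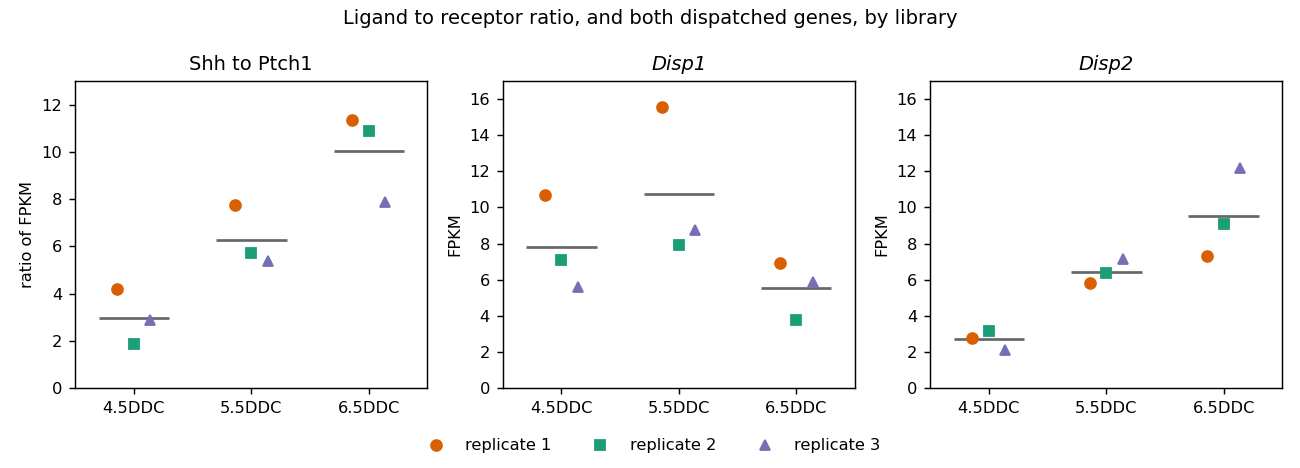
Ratio of the FPKM of Shh to that of Ptch1 (left), and FPKM of Disp1 (middle) and Disp2 (right), at the 3 time points, with 1 symbol per library by replicate number and a bar at the mean of 3. The ratio lies between 1.87 and 4.21 at 4.5DDC and between 7.88 and 11.3 at 6.5DDC, and at 6.5DDC Disp2, from 7.30 to 12.2, lies above Disp1, from 3.79 to 6.92.

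The promoters of Ptch1 and Hhip are shown because both genes are known to be transcribed in response to the signal and both were lower at 5.5DDC than at 4.5DDC in every library. Each sequence is the 250 bases before the gene's start in the promoter table of RefSeq, build GRCm38.p6, read on the minus strand, and capitals mark the letters GGGCGG, a GC box, or their reverse complement. The Ptch1 window, chr13:63565736-63565985, lies inside the annotated gene from 63508328 to 63573598, holds no exon base and is thus intronic for the longer transcripts, and ends at an annotated start. It has 78.4% G and C and 1 match.
Ptch1: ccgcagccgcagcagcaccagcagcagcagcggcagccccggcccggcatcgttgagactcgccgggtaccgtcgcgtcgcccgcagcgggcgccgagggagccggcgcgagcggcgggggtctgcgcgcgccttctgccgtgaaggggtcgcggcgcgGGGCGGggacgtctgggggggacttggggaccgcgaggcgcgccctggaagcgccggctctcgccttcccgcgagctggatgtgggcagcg
The Hhip window, chr8:80058009-80058258, lies outside the annotated gene from 79965851 to 80058006, just before its start, with 76.0% G and C and 2 matches.
Hhip: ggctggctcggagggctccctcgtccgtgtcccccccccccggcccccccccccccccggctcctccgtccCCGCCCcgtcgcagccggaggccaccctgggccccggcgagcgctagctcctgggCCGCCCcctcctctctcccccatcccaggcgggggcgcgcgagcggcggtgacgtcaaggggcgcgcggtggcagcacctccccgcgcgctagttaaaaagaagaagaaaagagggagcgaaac
Letters typical of Gli binding, GACCACCCA on either strand, were in 83 of 32851 promoters of 300 bases (0.253%) and in 0 of the 7 genes with an entry among the 9, which says only that these letters are not in these windows. The GC box, searched after those letters had found none and on either strand, was in 11714 promoters (35.7%) and in 4 of the 7 genes. Shh and Boc had no entry.

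Ptch1, which encodes the receptor, was at 44.0, 62.4 and 47.8 FPKM at 4.5DDC (51.4 ± 9.74), 42.1, 39.6 and 39.3 at 5.5DDC (40.3 ± 1.52) and 19.5, 26.2 and 33.3 at 6.5DDC (26.4 ± 6.90). No 2 time points overlapped. Between 4.5DDC and 6.5DDC Ptch1 fell by 0.99 ± 0.19 in log2 units (edgeR adjusted p = 0.00816), and it was lower in 3 of 3 replicate numbers, with differences of -1.12, -1.22 and -0.65 log2 CPM. This call held under all 21 alternatives, with adjusted p between 5.73e-05 and 0.0365. The separate intervals gave -0.40 ± 0.19 (edgeR adjusted p = 0.341) and -0.59 ± 0.19 (edgeR adjusted p = 0.179), and their difference was -0.18 ± 0.32 (adjusted p = 0.893). The test of any difference gave an adjusted p of 0.0257 in edgeR. It did not pass without 4.5DDC replicate 2 (0.0802), 4.5DDC replicate 3 (0.0614), 5.5DDC replicate 2 (0.0520), 5.5DDC replicate 3 (0.0520) or 6.5DDC replicate 2 (0.10).

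Since Shh was higher and Ptch1 lower, their ratio in FPKM was ordered by time: 4.21, 1.87 and 2.89 at 4.5DDC, 7.74, 5.71 and 5.39 at 5.5DDC and 11.3, 10.9 and 7.88 at 6.5DDC, with no overlap between time points. This ratio was formed after the values were seen and was not tested. Among 11995 genes averaging 2 FPKM or more, the 3 whose log2 CPM profile over the 9 libraries lay nearest to that of Ptch1, each profile centred on its own mean, were Pwp2, Kdm2b and Noc2l, with root mean square distances of 0.0943, 0.119 and 0.131 against a median of 0.528. Kdm2b, for example, was at 28.2, 50.7 and 29.7 FPKM at 4.5DDC, 26.8, 30.3 and 27.9 at 5.5DDC and 11.4, 21.4 and 24.2 at 6.5DDC.

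Ptch1 was also set against other genes of the pathway within each library by an exact two-sided permutation test of log2 FPKM ratios, 4.5DDC against 6.5DDC. With 3 against 3 libraries the 20 splits allow no p below 0.1. Its log2 ratio to Gli1, a transcription factor and direct target of the signal, was 3.64 ± 0.73 (SD, n = 3) at 4.5DDC and 5.74 ± 0.65 at 6.5DDC, a difference of 2.10 without overlap (exact permutation p = 0.1). The ratio to Smo was 0.16 ± 0.19 and -0.50 ± 0.57, a difference of -0.66 without overlap (exact permutation p = 0.1). Against the sum of Cdon, Boc and Gas1 the log2 ratio was 1.29 ± 0.79 and 0.33 ± 0.48, with a difference of -0.96 (exact permutation p = 0.2), and against Hhip it was 2.98 ± 0.02 and 2.67 ± 1.22, with a difference of -0.32 (exact permutation p = 0.8). Without 6.5DDC replicate 1 the difference against Gli1 was 1.74, against Smo -0.34, against the co-receptor sum -0.71 and against Hhip 0.36, and without 4.5DDC replicate 2 that against the co-receptor sum was -0.53.

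Hhip, whose product binds Shh at the cell surface, was at 5.64, 7.91 and 5.96 FPKM at 4.5DDC (6.51 ± 1.23) and at 4.56, 3.83 and 3.84 at 5.5DDC (4.08 ± 0.419). At 6.5DDC it was at 7.83, 3.35 and 2.55 (4.58 ± 2.85). The 5.5DDC libraries lay below those of 4.5DDC, and at 6.5DDC replicate 1 was within the range of 4.5DDC while replicates 2 and 3 were below all earlier libraries. The log2 fold changes were -0.70 ± 0.35 from 4.5DDC to 5.5DDC (edgeR adjusted p = 0.365) and -0.58 ± 0.35 from 4.5DDC to 6.5DDC (edgeR adjusted p = 0.26). Without 6.5DDC replicate 1 the latter was -1.16 and passed (adjusted p = 0.0086), and with replicates 2 and 3 alone it was -1.30 (adjusted p = 0.00239), in a range over the alternatives up to 0.561. Between 4.5DDC and 6.5DDC the 3 replicate numbers gave 0.50, -1.31 and -1.28 log2 CPM.

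The 6.5DDC library with the highest Hhip, replicate 1, was also the highest of all 9 libraries in 8 of 10 endoderm markers. The others were Cdh1 (6.55 FPKM there, highest at 13.3 in 5.5DDC replicate 3) and Epcam (0.810 there, highest at 1.28 in 4.5DDC replicate 2). Of the 10, 6 were tested, and edgeR, DESeq2 and limma voom called 0 in any pair of time points, with 3 at an unadjusted p under 0.05 by edgeR from 5.5DDC to 6.5DDC, Gata4 and Gata6 higher and Cdh1 lower, against 18.5% of all genes. Their summed level, led by Foxa1, was 54.0, 31.5 and 34.2 FPKM at 4.5DDC, 50.3, 45.9 and 49.7 at 5.5DDC and 72.6, 42.8 and 40.3 at 6.5DDC. Foxa1 is also made in the floor plate. Gata4, a transcription factor of endoderm and mesoderm, was at 7.62 FPKM in this library and at 1.47 and 1.53 in the other two of 6.5DDC, and Gata6, its relative, at 1.63 against 0.333 and 0.285. The transport protein gene Ttr was at 2.34 against 0.268 and 0.233 FPKM. Apoa1 (1.79), Afp (0.569), Sox17 (0.529) and Hnf4a (0.200) had their highest FPKM there too, and Apoa1 was at 0 in the other libraries of 6.5DDC. Of all genes tested, 15.7% were highest in this library, and so were 3 of 8 floor plate markers (Ferd3l, Sulf1, Corin), 2 of 8 neural crest and mesenchyme genes (Twist1, Pdgfra), and Prom1, Noto, Zfp42 and Dppa5a. Corin, not called by edgeR, was at 194 FPKM there and at 40.7 and 54.5 in the other two of 6.5DDC. The same library held the highest Scube2. Hhip itself was highest in 4.5DDC replicate 2 (7.91 FPKM), where the endoderm sum was the lowest of all libraries (31.5 FPKM). In 4.5DDC replicate 1, with an endoderm sum of 54.0 FPKM, Hhip was at 5.64 FPKM, the lowest of its time point. The part of any of these markers in the results for Hhip and Scube2 was not tested.

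**Figure D4:**
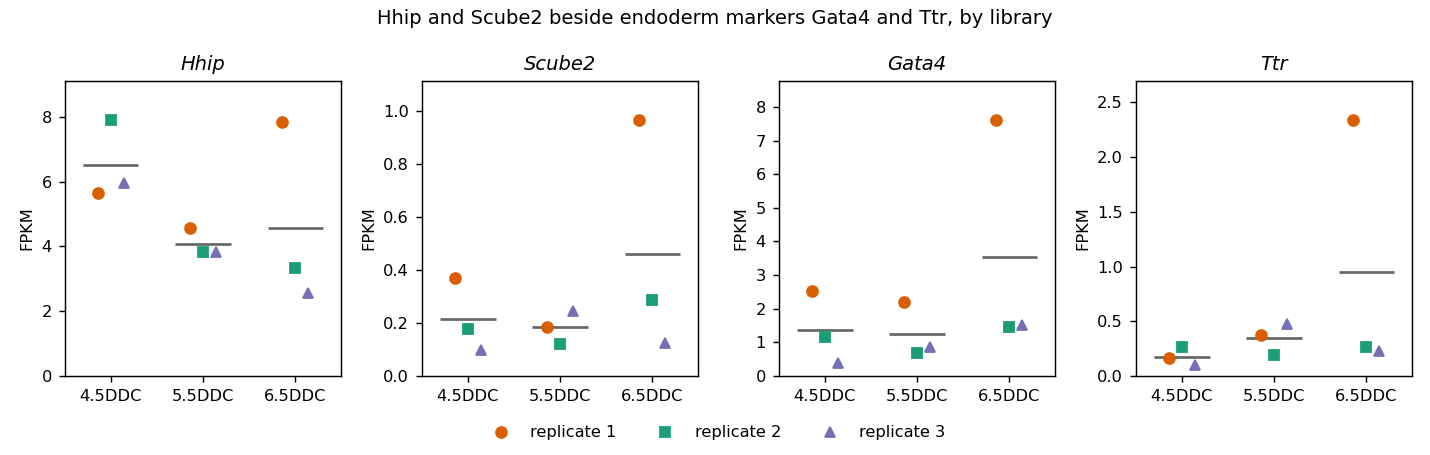
FPKM of Hhip, Scube2, Gata4 and Ttr, 1 panel each, at the 3 time points, with 1 symbol per library by replicate number and a bar at the mean of 3. In 6.5DDC replicate 1 Hhip is at 7.83, Scube2 at 0.967, Gata4 at 7.62 and Ttr at 2.34, each far above the other libraries of 6.5DDC.

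Notochord, a source of Shh outside the neural tube, was followed by 2 genes, of which T was tested and not called. The sum, led by T, was 1.84, 0.140 and 0.0932 FPKM at 4.5DDC, 0.835, 0.117 and 0.245 at 5.5DDC and 1.84, 0.0246 and 0.0257 at 6.5DDC, highest in replicate 1 each time. Noto was at 0 in replicates 2 and 3 of every time point and reached at most 0.147 FPKM. Of 8 neural crest and mesenchyme genes 5 were tested, of which 1, Twist1, rose from 4.5DDC to 6.5DDC by edgeR. Among all genes 9.21% were called higher and 18.7% in either direction. For the same 5 genes limma voom called 1 and DESeq2 2. In each interval of 1 day DESeq2 called 1 and the other two tools 0. Their sum, led by Twist1, was 6.97, 10.6 and 6.39 FPKM at 4.5DDC, 12.1, 17.9 and 16.0 at 5.5DDC and 16.0, 16.9 and 22.2 at 6.5DDC, and Sox10, made in neural crest and also in oligodendrocyte precursors, was at 0 in 7 of the 9 libraries and at most 0.0377 FPKM, from 1 and 2 counts in 6.5DDC replicates 2 and 3. The call of Twist1 held in 3 of 9 fits without 1 library, being lost without any replicate of 4.5DDC, without 5.5DDC replicate 2 and without 6.5DDC replicate 1 or 2 (highest adjusted p = 0.0792), and it was also lost with only the 6 libraries compared and with replicates 2 and 3 alone. Of 2 motile cilium genes, known from floor plate and ependymal cells, 1 was analysed. It was Foxj1, not called by edgeR or limma voom in any pair of time points but called by DESeq2 from 4.5DDC to 5.5DDC, at 8.97, 5.04 and 2.31 FPKM at 4.5DDC, 23.8, 11.2 and 10.6 at 5.5DDC and 14.3, 6.56 and 13.7 at 6.5DDC.

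Smo, which encodes the transducer held inactive by the receptor, was at 45.8, 52.5 and 39.2 FPKM at 4.5DDC (45.8 ± 6.61), 52.9, 42.8 and 44.8 at 5.5DDC (46.8 ± 5.33) and 43.6, 30.8 and 36.2 at 6.5DDC (36.9 ± 6.43). The time points overlapped pairwise, and the lowest values were those of 6.5DDC replicates 2 and 3. Within replicate numbers Smo was lower in 3 of 3 from 5.5DDC to 6.5DDC, by 0.33, 0.53 and 0.36 log2 CPM, and in 3 of 3 between 4.5DDC and 6.5DDC, by 0.10, 0.89 and 0.17. Its log2 fold change was 0.02 ± 0.18 from 4.5DDC to 5.5DDC (edgeR adjusted p = 0.975) and -0.40 ± 0.18 from 5.5DDC to 6.5DDC (edgeR adjusted p = 0.267). Over both days together it was -0.38 ± 0.18 (edgeR adjusted p = 0.155). Under the 21 alternatives the value ran from -0.55 to -0.26 for the later interval and from -0.54 to -0.25 over both days, and none passed.

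The co-receptors were dominated by Cdon, which encodes an immunoglobulin-type membrane protein that binds Shh. Cdon was at 23.5, 7.96 and 16.4 FPKM at 4.5DDC (16.0 ± 7.79), 23.4, 14.9 and 17.7 at 5.5DDC (18.7 ± 4.34) and 18.1, 16.4 and 14.02 at 6.5DDC (16.2 ± 2.06). It was lowest in 4.5DDC replicate 2, and all time points overlapped. Its log2 fold change between 4.5DDC and 6.5DDC was 0.04 ± 0.26 (edgeR adjusted p = 0.92), with leave-one-out values on both sides of 0. Boc, its paralogue, was at 2.65, 3.65 and 3.08 FPKM at 4.5DDC (3.13 ± 0.502), 3.28, 3.22 and 2.88 at 5.5DDC (3.13 ± 0.213) and 2.25, 2.31 and 3.20 at 6.5DDC (2.59 ± 0.532). Its time points overlapped too, with a log2 fold change of -0.30 ± 0.20 from 4.5DDC to 6.5DDC (edgeR adjusted p = 0.303).

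Gas1, which encodes a co-receptor anchored in the membrane by a lipid, was at 3.04, 2.53 and 2.33 FPKM at 4.5DDC (2.63 ± 0.368), 2.40, 1.47 and 1.61 at 5.5DDC (1.83 ± 0.499) and 1.42, 1.89 and 1.89 at 6.5DDC (1.73 ± 0.268). All libraries of 6.5DDC lay below those of 4.5DDC, and 5.5DDC overlapped both. Between 4.5DDC and 6.5DDC Gas1 had a log2 fold change of -0.62 ± 0.25, which did not pass (edgeR adjusted p = 0.114), and it was lower in 3 of 3 replicate numbers. The summed level of Cdon, Boc and Gas1 was 29.2, 14.1 and 21.8 FPKM at 4.5DDC, 29.1, 19.6 and 22.2 at 5.5DDC and 21.8, 20.5 and 19.1 at 6.5DDC, with overlap throughout. Cdon made up between 56.3% of this sum, in 4.5DDC replicate 2, and 83.1%, in 6.5DDC replicate 1. Of the 3 co-receptor genes, edgeR called 0 in any comparison, as did DESeq2 and limma. From 4.5DDC to 6.5DDC edgeR called 18.7% of all genes, DESeq2 24.9% and limma voom 17.7%, so 0 of 3 was near the background. In the intervals of 1 day edgeR called 0.0746% and 0.224% of all genes. Gas1 alone had an unadjusted p under 0.05 in edgeR, from 4.5DDC to 5.5DDC (15.4% of all genes) and to 6.5DDC (35.4%).

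Other genes of the pathway were followed as a list of 27, of which 24 were tested. From 4.5DDC to 6.5DDC 6 were called, 1 higher (Disp2) and 5 lower, against 18.7% of all genes tested, 9.21% higher and 9.53% lower. The count of 6 in 24 was thus near the background, while the share lower was above it and the share higher below it, which was not tested. The median log2 fold change was -0.29 over the 24, against 0.0040 over all genes tested. The 3 Gli genes, which encode the transcription factors of the pathway, fell most. Gli1 was at 2.34, 8.77 and 3.29 FPKM at 4.5DDC, 0.920, 1.85 and 1.72 at 5.5DDC and 0.223, 0.550 and 0.915 at 6.5DDC, and fell by 3.02 ± 0.60 on the log2 scale (edgeR adjusted p = 0.00985). Gli2 fell by 3.09 ± 0.52 (edgeR adjusted p = 0.00499) and Gli3 by 2.61 ± 0.28 (edgeR adjusted p = 0.00107). Each of these changes was larger than the fall of 0.99 in Ptch1. Only for Ptch1 and Gli1 was a permutation test of the difference run, as given above, and it allowed no p below 0.1, so it could not pass.

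Of 10 tested partners and negative regulators of Smo at the cilium 1 passed, Evc, which encodes a membrane protein of the ciliary base. It had 7.99, 7.39 and 6.63 FPKM at 4.5DDC, 6.88, 6.51 and 6.83 at 5.5DDC and 2.90, 2.97 and 3.07 at 6.5DDC, and fell by 0.94 ± 0.17 on the log2 scale (edgeR adjusted p = 0.00611). In ligand processing and release 2 of 5 passed, Disp2 and Scube1, and among factors inside the cell 3 of 5. In the earlier interval of 1 day edgeR and limma voom called 0 of the 24 and DESeq2 3, with 5 at an unadjusted p under 0.05 by edgeR, against 15.4% of all genes. In the later interval edgeR and limma voom called 0 and DESeq2 3, with 10 at an unadjusted p under 0.05, against 18.5%. The test of any difference called 5, against 9.63% of all genes tested. Without 1 library, between 5 and 7 of the 24 were called from 4.5DDC to 6.5DDC, where these fits called 7.56% to 20.9% of all genes. All of the 6 other than Scube1 held in each such fit.

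**Figure D5:**
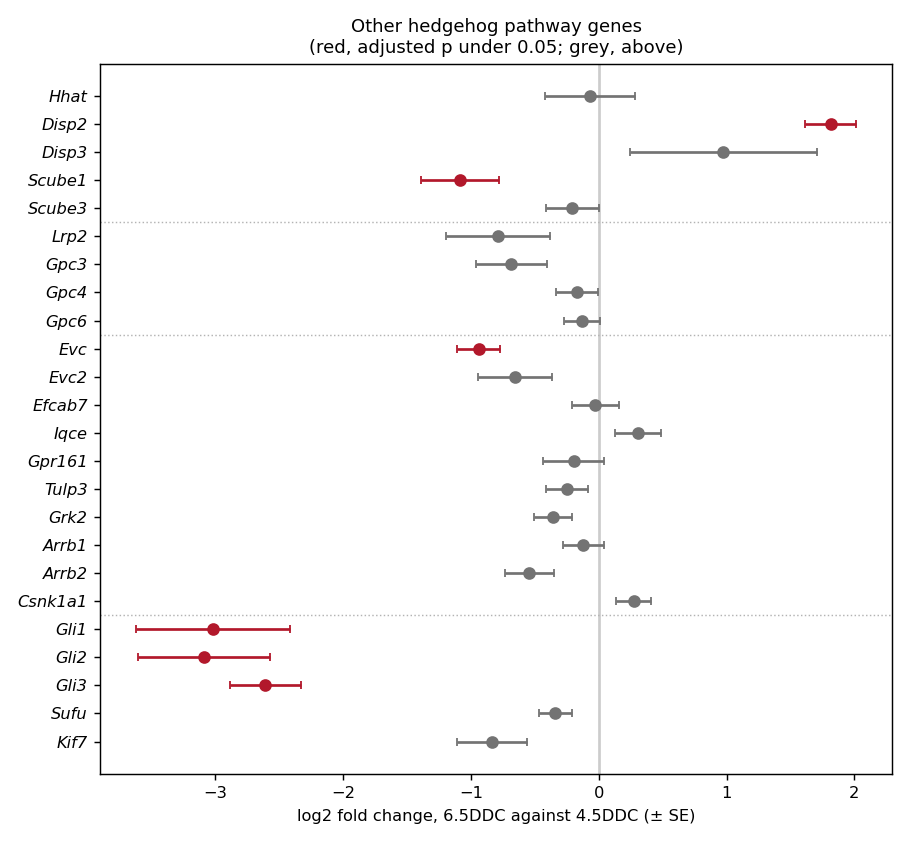
Log2 fold change from 4.5DDC to 6.5DDC of the 24 tested genes of the list, with the SE of the edgeR fit as error bars and red for an adjusted p under 0.05. Dotted lines part, from the top, ligand processing and release, the cell surface, partners of Smo at the cilium, and factors inside the cell, where the Gli genes lie farthest below 0, while Disp2 lies farthest above.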

How the data were processed

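RNA of 9 libraries of prominin-1-sorted progenitors was sequenced by the study (Illumina TruSeq, polyA selection, HiSeq2500, single-end reads). The submitters' processing notes name bcl2fastq 1.8.3, CASAVA, TopHat2 2.0.4, HTSeq 0.6.1, Cufflinks 2.1.1 and limma, with GRCm38 (mm10). Expected counts were deposited by the authors as gene counts from HTSeq, of which 98 symbols held values that were not whole (tolerance 1e-06), and all were rounded here. FPKM values deposited by the authors came from Cufflinks. The deposited log2 values equalled log2 CPM of those counts and were used only for that check.

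Groups were taken from the labels. Counts were fitted with edgeR 4.0.16 in R 4.3.3 (quasi-likelihood test, TMM factors from 0.951 to 1.04, filterByExpr, time point as the only term, 9 libraries, 6 residual degrees of freedom, common dispersion 0.0733), with Benjamini-Hochberg adjustment over 14742 genes and a threshold of 0.05. The SE is the log2 fold change divided by the square root of F. Total counts ranged from 11066572 to 25506192, and 3 counts, the limit that a count of 0 allows, correspond to 0.118 to 0.271 CPM. Such limits cover counting error only. The scripts were tested on simulated data in which 200 genes were changed at 6.5DDC. From 4.5DDC to 6.5DDC edgeR recovered 30 of them at a log2 change of 1, with 3 false calls. At a log2 change of 2 it recovered 160, with 13 false calls. Most changes of 1 were thus missed in that setting, so a gene that did not pass may still have changed. Ratios of FPKM were compared by an exact permutation test over all splits (numpy 2.4.6), tables were made with pandas 2.3.3 and figures with matplotlib 3.10.9.

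Replicate numbers in the labels were checked as pairs: same-number deviations correlated at 0.743, 0.386 and 0.452 between 4.5DDC and 5.5DDC, and at 0.454, 0.367 and 0.197 between 5.5DDC and 6.5DDC, but at 0.383, -0.040 and -0.215 between 4.5DDC and 6.5DDC. Replicates 2 and 3 correlated across numbers about as strongly (4.5DDC replicate 3 with 5.5DDC replicate 2 at 0.390, 5.5DDC replicate 3 with 6.5DDC replicate 2 at 0.405), so the data set replicate 1 apart more than they pair each number, and the labels do not say what a number shares. The blocked fit is given where it changes a call.

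The 9 genes are each named in full. Other pathway genes are given by counts, with values for those past the threshold in a pair of time points, the markers by list, and for a member past the test of any difference the 3 nearest profiles. A few listed genes are not reported here. Other genes named, and the ratios of Shh to Ptch1 and of Disp1 to Disp2, were chosen after their values were seen. The members and lists were chosen with earlier results of these data known. The alternatives were other normalizations (RLE, library totals), filters (none, or 10 counts in 3 libraries), limma 3.58.1 (voom, and log2 FPKM with a pseudocount of 1 or 0.1), DESeq2 1.42.0, the replicate block, only the libraries compared, and leaving out each library. Gene positions are from GENCODE M21.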

Additional observations from a re-analysis of the deposited data

How the results depend on the processing

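Of 563 log2 fold changes of the 9 genes under the alternatives, 527 kept their direction and their side of the threshold, 29 reversed, 3 newly passed and 4 no longer passed. Of 28 values of the 4 ratios, 27 kept their direction and 1 reversed, while their side of the threshold could not change, since no p below 0.1 was possible. Of 102 counts of called genes 88 equalled the main count or were within 1.5 times of it. The main count was 0 in each interval of 1 day and for the difference between the intervals. Only 0 was then taken as the same, and in the main fit 0.0746%, 0.224% and 0.0% of all genes passed there. Agreement on 0 therefore says little. None of the reversed values had passed the threshold or came to pass it, and the cause was not tested.

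From 4.5DDC to 5.5DDC DESeq2 called 1 gene in place of 0. In the test of any difference DESeq2 called 2 in place of 1, the replicate block 3, and replicates 2 and 3 alone 3, where of all genes these fits called 20.2%, 14.8% and 22.7%. The replicate block changed no other count of the 9, with 0 called in each interval of 1 day and 2 from 4.5DDC to 6.5DDC. Over all genes the blocked share was 1.44% in the earlier interval, 1.32% in the later and 23.2% from 4.5DDC to 6.5DDC. In the main fit these shares were 0.0746%, 0.224% and 18.7%. Leaving out 1 library gave 1 to 3 calls from 4.5DDC to 6.5DDC, where these fits called 7.56% to 20.9% of all genes. For any difference it gave 0 to 2, against 2.17% to 12.1% of all genes.

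Reversed from 4.5DDC to 5.5DDC were Smo with replicates 2 and 3 alone (-0.098), and Boc with limma voom (0.00028), voom without normalization (0.034), log2(FPKM + 1) (0.0056) and log2(FPKM + 0.1) (0.0093). Reversed from 5.5DDC to 6.5DDC were Hhip with limma voom (-0.058), voom without normalization (-0.080) and replicates 2 and 3 alone (-0.47), and with those replicates Cdon (0.054) and Gas1 (0.30). Leaving out 1 library gave from 4.5DDC to 5.5DDC -0.088 to 0.13 for Smo, -0.11 to 0.42 for Cdon, -0.15 to 0.068 for Boc and -0.96 to 0.16 for Scube2. From 5.5DDC to 6.5DDC it gave -0.073 to 0.26 for Shh, -0.46 to 0.38 for Hhip, -0.21 to 0.11 for Cdon and -0.19 to 0.20 for Gas1. From 4.5DDC to 6.5DDC it gave -0.20 to 0.33 for Cdon and -0.11 to 1.68 for Scube2, and the log2 ratio of Ptch1 to Hhip ran from -0.84 to 0.36.

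Using replicates 2 and 3 alone, and the alternatives for the difference between the intervals, for each gene's test of any difference and for the other pathway genes, were chosen after seeing the data. The other pathway genes called from 4.5DDC to 6.5DDC numbered 5 to 8 under the alternatives, against 6. The share of all genes called under these alternatives ran from 7.56% to 31.3%. DESeq2 gave no adjusted p for Scube2 from 4.5DDC to 5.5DDC and was not run on the difference between the intervals. Scube2 was removed by the filter in the fits to the 6 libraries of 4.5DDC and 5.5DDC and to replicates 2 and 3. With at most 44 counts, depth limits what can be said of Scube2. The 3 libraries per time point come from 1 cell line under 1 treatment, and without cultures lacking RA and SAG no effect of time can be set apart from time since those agents, whose end the sources place differently.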
